A study of Mus musculus with 6 samples.

Results

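The replication-dependent histone cluster genes were examined in 6 bulk RNA-seq libraries of mouse B cells, 3 WT and 3 Hif1a KO. All protein-coding genes whose GENCODE vM21 symbol starts with Hist1h, Hist2h, Hist3h or Hist4 were taken, which gave 67 genes, of 46983 genes listed for the whole series. Of these, 65 had values and 2, Hist1h2bh and Hist1h2bm, were not analysed here. The 65 comprised 6 genes of the linker histone H1, 18 of H2A, 16 of H2B, 12 of H3 and 13 of H4.

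The cells were splenic follicular B cells, sorted as CD21int CD23+ per the study's methods, which were driven towards IgA class switching in culture. Both groups were stimulated with LPS (5 µg/ml) in the presence of TGF-β, IL-5 and BAFF (each at 10 ng/ml), and day 3 was the time of collection. KO cells carried floxed Hif1a alleles, the gene of the oxygen-regulated transcription factor HIF-1α, and Mb1-cre, a recombinase driven from the Cd79a locus and therefore active from early B-lineage stages on. WT cells came from littermates with either cre and 1 floxed allele or floxed alleles without cre, and which library came from which kind of WT mouse is not given. The strain background was C57BL/6, and the age and sex of the animals behind these libraries are not stated. Nothing says whether the replicates were separate animals or cultures, so the p-values measure only the spread between these samples.

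Histone genes of these clusters supply the octamer proteins H2A, H2B, H3 and H4 and the linker H1 with which newly copied DNA is packaged. They are transcribed in S phase under the coactivator NPAT. Their mRNAs are intronless and end, in place of a poly(A) tail, in a conserved stem-loop that SLBP binds, and they are cut from the precursor with the help of the U7 snRNP. Some of these genes, Hist1h1c and Hist2h2be among them, are also known to give longer transcripts with a poly(A) tail, and library methods that start from the tail see those transcripts far better. The labels name a SMARTer mRNA kit on total RNA, and whether poly(A) RNA was selected is not stated.

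The stem-loop that defines this mRNA class is shown here because its place in the gene model divides the genes into those annotated to end there and those that run on. It was searched for by its consensus in the GENCODE vM21 transcripts (GRCm38, sense strand), and 42 of the 65 genes with values held it, each as 16 bases with a loop of 4 bases, printed in capitals. It took 6 forms.
common form of H1, H2A, H2B and H3, 24 genes: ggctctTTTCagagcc
second form of H1, H2B and H3, Hist1h2bk and Hist1h3c among 6 genes: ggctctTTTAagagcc
common form of H4, Hist1h4c among 7 genes: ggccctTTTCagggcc
Hist1h4i and Hist2h4: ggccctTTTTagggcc
Hist1h4b and Hist1h4j: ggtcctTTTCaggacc
Hist2h2ac: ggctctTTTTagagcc
The forms differed in the stem and at the last base of the loop, and the forms of H4 were not found in the other types. In the 42 genes the match had to end past the coding part. Searched for anywhere in the transcript, the same consensus was found in 73 of 21901 protein-coding genes with transcripts (0.333%), of which 44 were histone cluster genes. Of the 42 models, 20 ended within 60 bases of the element and 21 ran over 100 bases past it, with a range from 3 to 4884 bases. In 13 further genes, Hist1h3h, Hist1h3i and Hist1h4k among them, the model held the coding part only, so that the stem-loop could not be found in it.

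Libraries held 25 to 37.2 M reads on genes, and whole reads could be recovered from the deposited FPKM, the reads of a gene scaled to its length and to the depth of the library. One read on a gene of 500 bases was worth 0.0537 to 0.0799 FPKM. WT replicate 1 stood apart from WT replicates 2 and 3: along the first principal component of all tested genes, which held 54.7% of the variance, WT replicates 2 and 3 lay at 26.2 and 25.91 and the other 4 libraries between -19.49 and -7.097. Calls and medians are therefore given with and without it, and the plot of differences shows both values for every tested histone gene. Hif1a itself was read at 44.0 ± 6.81 FPKM in WT and 48.3 ± 3.93 in KO (SD, n = 3 each, limma adjusted p = 0.701). A value over the whole gene does not check the removal of part of it. Of the genes that define B cells, Ms4a1 was read at 326 to 445 FPKM over the 6 libraries, Cd79a at 498 to 1203, Cd79b at 410 to 734, Pax5 at 428 to 607 and Cd22 at 119 to 187. Of 6 B cell markers tested, 1, Cd79b, was called without WT replicate 1, higher in KO, against 3.64% of all genes.

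Histone cluster genes took a very small part of the reads. They held 1603 to 2405 reads per library, a share of 0.00577% (95% Wilson interval 0.00552% to 0.00603%, counting error only) in KO replicate 2 up to 0.00646% (0.00621% to 0.00672%) in WT replicate 1. Summed over the 65 genes, WT replicates 1, 2 and 3 held 64.6, 60.7 and 61.7 reads for every 1000000 counted on genes (RPM) and KO replicates 64.3, 57.7 and 57.8. The groups overlapped. For comparison, SLBP mRNA alone stood at 84.9 FPKM in WT, above every histone cluster gene. In all 6 libraries 10 genes were listed at 0, 30 were above 0 with a mean under 0.5 FPKM, and 25 reached 0.5 FPKM and entered the test: 3 of 6 H1, 4 of 18 H2A, 7 of 16 H2B, 6 of 12 H3 and 5 of 13 H4 genes.

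The level was concentrated in a few genes. Hist1h4i, an H4 gene, was the highest with 19.8 FPKM on average, followed by Hist1h1c, a linker histone gene, with 7.94 and Hist2h2be, an H2B gene on chromosome 3, with 5.33. Together these held 67.1% of all reads on histone cluster genes. The 30 genes whose vM21 model runs over 100 bases past the coding part held 88.0% of the reads and the other 35 held 12%. No other gene was above 3.98 FPKM on average, the level of Hist1h3c.

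**Figure D1:**
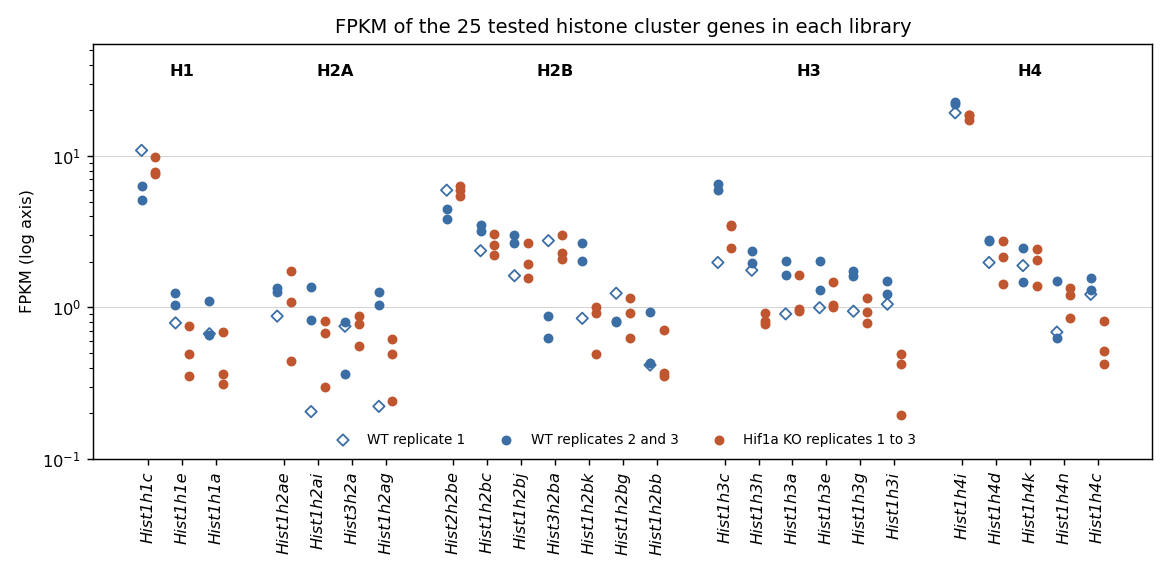
FPKM on a log axis of the 25 tested histone cluster genes, ordered by type and mean level, with 1 symbol per library (open diamonds WT replicate 1, blue WT replicates 2 and 3, orange KO). Hist1h4i lies at 17.2 to 22.7 FPKM, Hist1h1c and Hist2h2be come next, and for Hist1h3h, Hist1h3i and Hist1h4c every KO value is below every WT value.

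The genes at 0 were Hist1h1t, Hist1h2aa, Hist1h2ba, Hist2h2aa1, Hist2h2aa2, Hist2h2ab, Hist2h2bb, Hist2h3b, Hist2h3c1 and Hist1h4b. Hist1h1t, Hist1h2aa and Hist1h2ba are known as histones of the male germ line. At the annotated lengths, a count of 0 allows levels of up to 0.0442 to 0.315 FPKM (3 reads). How many reads a gene could receive also depends on its sequence, because these genes are near copies of each other and the handling of reads with several alignments is not stated. Over the 10 genes at 0, a median of 14.1% of the 100-base stretches of the transcript occurred in no other gene, and 5 of the 10, all in the Hist2 cluster, had no such stretch. The median was 56.0% for the 30 genes above 0 that were not tested and 67.8% for the 25 tested. Levels of single histone genes are therefore uncertain, above all those of the 7 tested genes with under 50%. In 8 of the 10 genes at 0 and 5 of the 25 tested, another annotated gene overlaps, and whether counting used the strand is not stated.

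**Figure D2:**
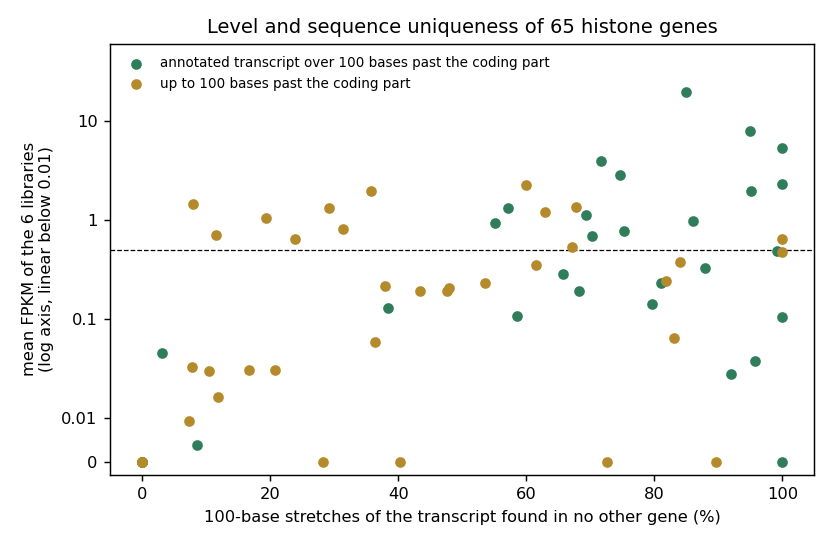
Mean FPKM of the 6 libraries (log axis, linear below 0.01) against the share of 100-base stretches of the transcript found in no other gene, for 65 histone genes, coloured by whether the annotated transcript runs over 100 bases past the coding part. The dashed line is the 0.5 FPKM limit for the test, and the highest genes, Hist1h4i, Hist1h1c and Hist2h2be, lie at 84.9%, 94.9% and 100%.

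Whether Hif1a deletion went with a different level of these genes was tested with limma across all 13312 genes with a mean of at least 0.5 FPKM. No histone cluster gene passed an adjusted p of 0.05, and neither did any other gene (0% of genes called), with 0.321 as the lowest adjusted p. Limma voom on the recovered reads called 0 genes as well. Unadjusted p was under 0.05 for 5 of the 25 genes, Hist1h1e, Hist1h3h, Hist1h3i, Hist1h4c and Hist1h4i, against 6.98% of all genes. In each the KO level was the lower, against 4.5% of all genes, and none was higher, against 2.48%. The same 5 were the ones without overlap between groups, with every KO value below every WT value, against 6.03% of all genes. None had every KO value above, against 4.06%. An exact permutation test on 3 against 3 libraries cannot go below p = 0.1. By the fitted difference, 19 of 25 were lower and 6 higher in KO, where 57.9% of all genes were lower. Hist1h1a, Hist1h2ag, Hist1h2bb and Hist1h3i reached the limit of 0.5 FPKM only through WT. Their means were 0.812, 0.840, 0.594 and 1.25 FPKM in WT and 0.453, 0.452, 0.477 and 0.369 in KO. For these genes the filter itself favours a lower KO value. The median difference was -0.15 on the log2(FPKM + 1) scale, beside -0.028 over all genes and -0.044 over the 4037 genes with a mean under 5 FPKM. On this scale, the pseudocount of 1 makes the change of genes at about 1 FPKM look smaller than it is.

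**Figure D3:**
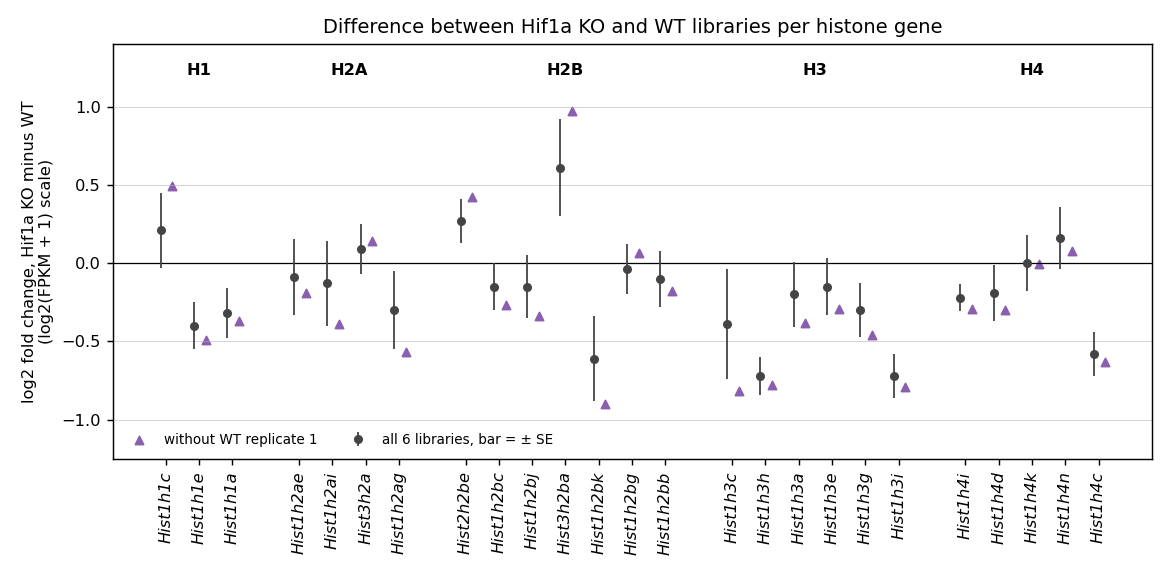
Difference of each tested histone gene between Hif1a KO and WT libraries on the log2(FPKM + 1) scale, from all 6 libraries (circles, bars ± SE) and without WT replicate 1 (triangles). All 6 H3 genes are below 0, and the 3 genes outside chromosome 13, Hist3h2a, Hist2h2be and Hist3h2ba, are above 0.

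H3 genes, whose product with H4 forms the core tetramer of the nucleosome, were the only type with every tested gene lower in KO. The 6 differences ran from -0.72 to -0.15 with a median of -0.35, beside -0.32 for H1, -0.19 for H4, -0.11 for H2A and -0.10 for H2B. Hist1h3i, and Hist1h1a, whose difference is the H1 median, entered the test only through WT, so these medians lean in part on the filter. The order of H3 and H1 was not stable, with medians of -0.48 and -0.75 at a pseudocount of 0.1. Without WT replicate 1 the medians were -0.62 for H3, -0.37 for H1, -0.29 for H4, -0.29 for H2A and -0.18 for H2B. Hist1h3h (chr13:21717659-21718069, GRCm38, plus strand) was read at 1.76, 2.36 and 1.97 FPKM in WT replicates 1 to 3 and at 0.778, 0.921 and 0.815 in KO. The groups did not overlap, with a difference of -0.72 (SE 0.12, limma adjusted p = 0.626). Hist1h3i (chr13:21782960-21783370, minus strand) was read at 1.05, 1.49 and 1.22 FPKM in WT and 0.194, 0.425 and 0.489 in KO, again with no overlap and with a difference of -0.72 (SE 0.14, adjusted p = 0.626). These levels rest on 13 to 30 reads per WT library and 2 to 13 per KO library.

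Hist1h3h and Hist1h3i are not independent measurements. Their models, both the coding part only, share 407 of 411 bases (99.0%), and only 8.0% of the 100-base stretches of Hist1h3h and 31.4% of those of Hist1h3i occur in no other gene, so that reads may be split or swapped between them. Their promoters are different sequences and are shown for this reason, as the 250 bases before the RefSeq start (GRCm38.p6), read 5′ to 3′ on the gene's strand, with TATAAA and CCAAT on either strand in capitals.
Hist1h3h promoter, chr13:21717378-21717627, plus strand: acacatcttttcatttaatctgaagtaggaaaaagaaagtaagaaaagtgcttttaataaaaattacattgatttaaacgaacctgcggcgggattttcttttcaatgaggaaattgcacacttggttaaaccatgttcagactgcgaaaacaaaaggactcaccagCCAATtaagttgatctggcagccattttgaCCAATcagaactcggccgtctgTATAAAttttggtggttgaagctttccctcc
Hist1h3i promoter, chr13:21783398-21783647, minus strand: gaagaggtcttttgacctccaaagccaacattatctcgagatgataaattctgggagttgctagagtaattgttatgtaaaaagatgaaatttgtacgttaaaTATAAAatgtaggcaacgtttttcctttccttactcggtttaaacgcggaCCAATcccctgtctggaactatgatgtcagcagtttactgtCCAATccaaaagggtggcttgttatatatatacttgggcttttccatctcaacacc
Each window held 1 TATAAA and 2 CCAAT matches, at different places.

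Of the other H3 genes, Hist1h3c (chr13:23744973-23745602) had the highest level. It was read at 1.98, 6.54 and 5.98 FPKM in WT and 3.43, 3.51 and 2.46 in KO, so WT replicate 1 lay below all KO libraries and the other WT replicates above them. The difference of -0.39 (SE 0.35, limma adjusted p = 0.701) was smaller than the spread between the WT replicates. Hist1h3a was read at 1.52 ± 0.565 FPKM in WT and 1.18 ± 0.392 in KO (SD, n = 3), and Hist1h3e and Hist1h3g, the other tested H3 genes, had differences of -0.15 and -0.30. Summed over the 12 H3 genes, WT replicates held 4.35, 8.08 and 8.43 RPM and KO replicates 4.87, 5.01 and 3.85. WT replicate 1 lay among the KO libraries, and the KO mean was 0.658 times the WT mean with it and 0.555 times without it.

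H4 was carried by Hist1h4i (chr13:22040636-22041362, minus strand), whose model runs 330 bases past its stem-loop. It was read at 19.3, 22.7 and 22.2 FPKM in WT and 18.7, 17.2 and 18.7 in KO, on 341 to 521 reads per library. All KO values were below all WT values by a small margin, with a difference of -0.22 (SE 0.085, limma adjusted p = 0.626). Hist1h4c (chr13:23697635-23698454) was read at 1.22, 1.31 and 1.56 FPKM in WT and 0.809, 0.516 and 0.424 in KO. Its groups did not overlap either, and the difference was -0.58 (SE 0.14, adjusted p = 0.626) on 5 to 18 reads per library. Hist1h4d, at 2.51 ± 0.455 FPKM in WT and 2.10 ± 0.653 in KO, and Hist1h4k, at 1.95 ± 0.505 and 1.96 ± 0.525 (SD, n = 3), overlapped between groups. Over the 13 H4 genes, WT replicates held 16.7, 20.5 and 19.6 RPM and KO replicates 16.7, 15.5 and 16.5, with WT replicate 1 level with the highest KO library.

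H1 genes encode the linker that binds between nucleosomes. Hist1h1c (chr13:23738808-23740367) was read at 10.9, 6.32 and 5.11 FPKM in WT and at 9.86, 7.59 and 7.90 in KO. All KO libraries were above WT replicates 2 and 3 and below WT replicate 1, and the difference of 0.21 (SE 0.24, limma adjusted p = 0.757) was within the spread of WT. Without WT replicate 1 it was 0.49 (adjusted p = 0.0768, range over the alternatives 0.0768 to 1). Hist1h1e (chr13:23620629-23622558) was read at 0.790, 1.04 and 1.24 FPKM in WT and 0.748, 0.350 and 0.492 in KO. Its groups did not overlap, with a difference of -0.40 (SE 0.15, adjusted p = 0.626), and its span overlaps Hist1h2be. Hist1h1a had a difference of -0.32 (SE 0.16). In sum, the 6 H1 genes held 18.7, 12.4 and 10.5 RPM in WT and 16.9, 12.7 and 13.4 in KO, most of them on Hist1h1c.

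H2B genes gave the higher values in KO as well as the lower ones. Hist2h2be (chr3:96221119-96223738), whose model runs 2192 bases past the coding part, was read at 5.95, 3.85 and 4.48 FPKM in WT and 5.95, 6.30 and 5.44 in KO, a difference of 0.27 (SE 0.14, limma adjusted p = 0.626). WT replicate 1 lay inside the KO range. Without it the difference was 0.42. Hist3h2ba (chr11:58948920-58949533) was read at 2.76, 0.631 and 0.878 FPKM in WT and 2.99, 2.09 and 2.29 in KO, again with WT replicate 1 inside the KO range and the other WT replicates below it. Its difference was 0.61 (SE 0.31, adjusted p = 0.626). Hist1h2bk (chr13:22035870-22036345) went the other way, with 0.847, 2.04 and 2.67 FPKM in WT and 1.01, 0.917 and 0.492 in KO, a difference of -0.61 (SE 0.27, adjusted p = 0.626), and again WT replicate 1 lay among the KO libraries. Hist1h2bc, at 3.02 ± 0.587 FPKM in WT and 2.61 ± 0.413 in KO, and Hist1h2bj, at 2.43 ± 0.717 and 2.07 ± 0.560 (SD, n = 3), overlapped between groups, as did Hist1h2bb and Hist1h2bg. Summed over the 16 H2B genes, which held 34.1% of the reads on histone cluster genes, WT replicates held 22.4, 17.0 and 19.2 RPM. KO replicates held 22.5, 22.7 and 20.8 RPM, and the KO mean was 1.13 times the WT mean, or 1.22 times without WT replicate 1.

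H2A genes were the lowest type, with no gene over 1.13 FPKM on average. Hist1h2ae was read at 1.16 ± 0.249 FPKM in WT and 1.09 ± 0.647 in KO, Hist1h2ag at 0.840 ± 0.548 and 0.452 ± 0.194, and Hist1h2ai at 0.800 ± 0.584 and 0.597 ± 0.269 (SD, n = 3). Hist3h2a stood at 0.640 ± 0.243 and 0.737 ± 0.163. All 4 overlapped between groups, with differences between -0.30 (Hist1h2ag, -0.57 without WT replicate 1) and 0.090 (Hist3h2a, 0.14 without it). In each, another annotated gene overlaps the span. Over all 18 H2A genes, WT replicates held 2.47, 2.78 and 4 RPM and KO replicates 3.40, 1.83 and 3.21.

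**Figure D4:**
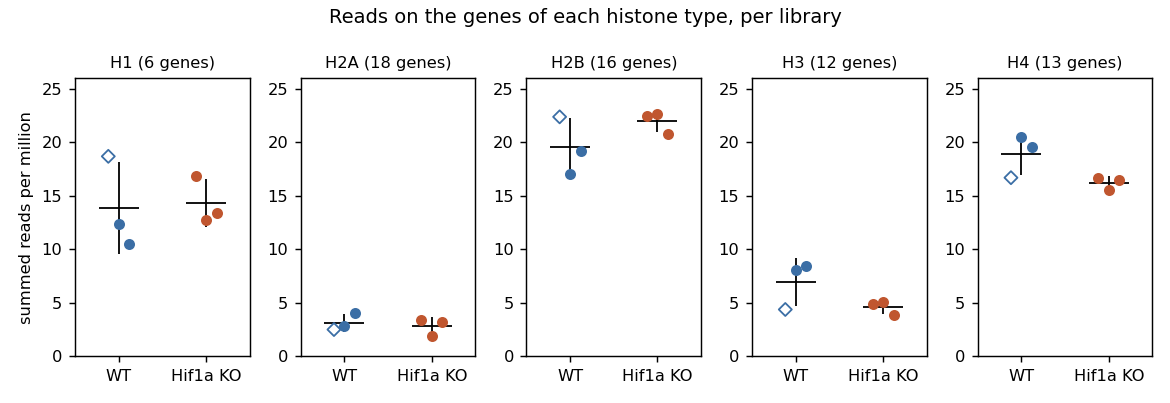
Reads for every 1000000 reads on genes (RPM), summed over the genes of each histone type, 1 symbol per library (open diamond WT replicate 1), with the mean of each group as a horizontal line and ± SD as a vertical line (n = 3). H3 is at 8.08 and 8.43 in WT replicates 2 and 3 and at 3.85 to 5.01 in the other 4 libraries, and for every type the ranges of the groups overlap.

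H2A and H2B genes stand in pairs, head to head, and share the stretch between their starts. There were 12 such pairs, 175 to 305 bases apart, and the H2B gene had the higher mean FPKM in 7, the H2A gene in 4, while the pair Hist1h2ba and Hist1h2aa was at 0. The pair Hist1h2ah and Hist1h2bk, 301 bases apart, is shown because its genes differed widely in level: Hist1h2bk stood at 1.33 FPKM over all libraries and Hist1h2ah at 0.0296, from 2 libraries with 1 read each. Only 10.5% of the 100-base stretches of Hist1h2ah and 29.2% of those of Hist1h2bk occur in no other gene, so both levels are uncertain. The stretch before Hist1h2bk holds the octamer ATTTGCAT, known as the site that Oct-1 and, in B cells, Oct-2 bind in histone H2B and immunoglobulin promoters, given in capitals with TATAAA and CCAAT on either strand.
Hist1h2bk promoter, chr13:22035571-22035820, plus strand: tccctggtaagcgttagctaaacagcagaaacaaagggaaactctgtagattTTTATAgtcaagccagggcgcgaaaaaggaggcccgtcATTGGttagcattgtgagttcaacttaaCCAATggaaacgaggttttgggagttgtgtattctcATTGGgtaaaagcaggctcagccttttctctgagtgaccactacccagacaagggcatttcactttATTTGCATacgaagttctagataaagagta
Among the 62 histone promoters matched in RefSeq (250 bases before to 50 after the start), 21.0% held ATTTGCAT on either strand, compared with 1.8% of all promoters. These were 7 of 18 H2A and 6 of 16 H2B promoters and none of H1, H3 or H4. A match in the stretch that a pair shares can count for both of its genes, so the promoters with a match need not hold separate sites. TATAAA was in 56.5% of them against 14.2% of all, and CCAAT in 85.5% against 37.9%. CCAAT was in all H1, H2A, H2B and H3 promoters but in only 3 of 12 H4 promoters (25%). ACGTG, a form of the core of the hypoxia response element, was in 22.6% against 19.7%, and other forms were not searched for. A match describes the letters in the window and not a bound site.

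By place in the genome, the 3 tested genes outside chromosome 13, Hist2h2be, Hist3h2a and Hist3h2ba, all had higher values in KO with a median of 0.27 (0.42 without WT replicate 1). Their models run 2192, 1700 and 213 bases past the coding part, so place and length of the model cannot be told apart for these 3. The Hist1 cluster had a median of -0.22 (-0.39 without it) in its part from Hist1h2bl to Hist1h2bj, with 9 tested, and of -0.19 (-0.30 without it) from Hist1h4h to Hist1h2aa, with 13 tested. By gene model, the 13 tested genes that run over 100 bases past the coding part had a median of -0.15 (-0.27 without WT replicate 1) and the other 12 a median of -0.25 (-0.39 without it). The length by which the authors divided, recovered from the FPKM, equalled the vM21 length for 15 of the 25 tested genes, and several with a long vM21 model were counted on a shorter one: Hist1h4c on 395 bases against 820 in vM21, Hist1h4d on 393 against 1138, Hist1h1e on 748 against 1930 and Hist1h3c on 489 against 630. Summed over the 35 genes whose model ends sooner, WT replicates held 5.78, 10.6 and 10.3 RPM and KO replicates 6.63, 5.85 and 5.66, so again WT replicate 1 lay among the KO libraries. Their KO mean was 0.679 times the WT mean, or 0.577 times without WT replicate 1. The 30 genes with the longer models, which held 88.0% of the histone cluster reads, were level. They summed to 53.4 ± 4.74 RPM in WT and 53.9 ± 3.30 in KO (SD, n = 3), with overlap. Here the KO mean was 1.01 times the WT mean, or 1.06 times without WT replicate 1. Of the 30 genes above 0 that were not tested, 5 had all KO values below all WT values, against 5.05% of all genes above 0 that were not tested. Named after their values were seen, these were Hist1h1d, at 0.650, 0.564 and 0.828 FPKM in WT and 0.376, 0.274 and 0.180 in KO, and Hist1h2ak, Hist2h2ac, Hist1h2bq and Hist1h3b, each on at most 7 reads per library.

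WT replicate 1 lay nearer to the KO mean than to the mean of WT replicates 2 and 3 for 20 of the 25 tested genes. This count and the correlations that follow were made for these genes only. Over all tested genes too, WT replicate 1 lay on the KO side of the first principal component. As a description over the 25 genes, which share libraries and sequence, its log2(FPKM + 1) values had a Pearson r of 0.935 to 0.946 with the KO libraries and of 0.839 and 0.831 with WT replicates 2 and 3. The exceptions were Hist1h1a, Hist1h3h, Hist1h3i, Hist1h4c and Hist1h4n, so 3 of the 5 genes without overlap were among them. Genes without overlap have WT replicate 1 above every KO value by definition, so this count adds no separate evidence.

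Without WT replicate 1, limma called 1251 of the 13312 genes (9.4%). Among the histone cluster genes, 5 of 25 were called, 4 lower in KO, where 5.75% of all genes were called lower, and 1 higher, against 3.64%. Hist1h3h fell by 0.78 on the log2(FPKM + 1) scale (limma adjusted p = 0.0179, range over the alternatives 0.0179 to 1). Hist1h3i fell by 0.79 (adjusted p = 0.0326, range 0.0312 to 1) and Hist1h3c fell by 0.82 (0.0243, range 0.0243 to 1). Thus 3 of 6 H3 genes were called without this library, but Hist1h3h and Hist1h3i among them are near copies and not independent. Hist1h3i also entered the test only through WT, so the filter itself favours its lower KO value. Hist1h2bk fell by 0.90 (0.0335, range 0.0335 to 1), and Hist3h2ba rose by 0.97 (0.0191, range 0.0191 to 1). By the fitted difference 19 of 25 were lower, where 59.5% of all genes were. The median over the 25 genes was -0.30, beside -0.050 over all genes. With all 6 libraries none of these 5 genes was called, and the labels give no ground to leave out WT replicate 1.

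Factors that transcribe and process histone mRNA were taken as a list of 27, of which 26 were tested. None was called or had an unadjusted p under 0.05, which 6.98% of all genes had. In KO 17 were lower, where 57.9% of all genes were, and the median was -0.054. Without WT replicate 1, 2 of the 26 were called, Mif4gd higher and Ccne2 lower, where 9.4% of all genes were, and the median was -0.078. Slbp, which binds the stem-loop, was read at 81.4, 89.0 and 84.2 FPKM in WT and 85.8, 83.1 and 82.6 in KO (difference -0.017, SE 0.059, limma adjusted p = 0.928). Npat was read at 12.6, 16.3 and 16.8 FPKM in WT and 14.4, 13.6 and 13.2 in KO (-0.13, SE 0.11, adjusted p = 0.701). Both overlapped between groups. In 4 of the 26 every KO value was below every WT value, against 6.03% of all genes. These were Zfp473, a U7-associated factor, with a difference of -0.18, the S-phase transcription factor E2f1 with -0.11, Sympk, the scaffold of the cleavage complex, with -0.091 and Snrpb, a core protein shared by the spliceosomal snRNPs and the U7 particle, with -0.058. In 1, Snrpg, another such core protein, every KO value was above, with 0.092, against 4.06% of all genes.

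Among the replication-independent histones, whose mRNAs carry poly(A) tails, the levels were higher than in any cluster gene for the main H2A and H3 variants. H2afz, the H2A.Z variant, was read at 461, 658 and 661 FPKM in WT and 466, 449 and 467 in KO, with WT replicate 1 inside the KO range and a difference of -0.35 (SE 0.14, limma adjusted p = 0.626). H3f3b, an H3.3 gene, was read at 476, 589 and 591 FPKM in WT and 471, 490 and 459 in KO (-0.21, SE 0.10, adjusted p = 0.626), whereas H3f3a, which encodes the same protein, had a difference of 0.054. H2afj was at 18.9, 17.4 and 18.5 FPKM in WT and 16, 16 and 16.2 in KO, with no overlap and a difference of -0.17 (SE 0.064, adjusted p = 0.626). H2afx, known to give both a stem-loop and a poly(A) transcript, was at 97.7 ± 2.09 FPKM in WT and 94.7 ± 4.42 in KO. Its model held a stem-loop and ran 822 bases past it.
H2afx: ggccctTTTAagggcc
Of the 9 tested of 11 none was called and 2, H2afz and H2afj, had an unadjusted p under 0.05, against 6.98% of all genes. Without WT replicate 1, where 9.4% of all genes were called, 3 of the 9 were: H2afz fell by 0.52 (adjusted p = 0.00731), H3f3b fell by 0.32 (0.0288) and H1f0, the linker variant of resting cells, rose by 0.67 (0.0325). For each of these 3, that was the lowest adjusted p over the alternatives and 1 the highest.

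Histones are made while DNA is copied, so the replication machinery was read beside them. Of 38 DNA replication genes 34 were lower in KO, where 57.9% of all genes were. Their median was -0.13 (-0.21 without WT replicate 1), and their summed level was 2754, 3313 and 3318 FPKM in WT and 2915, 2822 and 2700 in KO. None was called, and 1 had an unadjusted p under 0.05, against 6.98% of all genes. Without WT replicate 1 Mcm10, Rrm2, Tyms, Uhrf1 and Orc6 were called lower, 5 of 38 beside 5.75% of all genes. Of 24 histone chaperones and modifiers of new histones 21 were lower, against the same 57.9%, with a median of -0.11 (-0.16 without WT replicate 1). None was called, and 1 had an unadjusted p under 0.05, against 6.98% of all genes. Rbbp7 and Ipo4 were called lower without WT replicate 1, 2 of 24 beside 5.75% of all genes. In 4 of the 24 every KO value was below every WT value, against 6.03% of all genes: Ipo4 with a difference of -0.35, Asf1a with -0.19, Chaf1b with -0.16 and Set with -0.11. None had every KO value above, against 4.06% of all genes. Of 20 mitosis genes 17 were lower, again against 57.9% of all genes, with a median of -0.092 (-0.18 without WT replicate 1). None was called with or without WT replicate 1 or had an unadjusted p under 0.05. In bulk RNA, fewer cells in S phase and less histone mRNA per cell cannot be told apart.

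**Figure D5:**
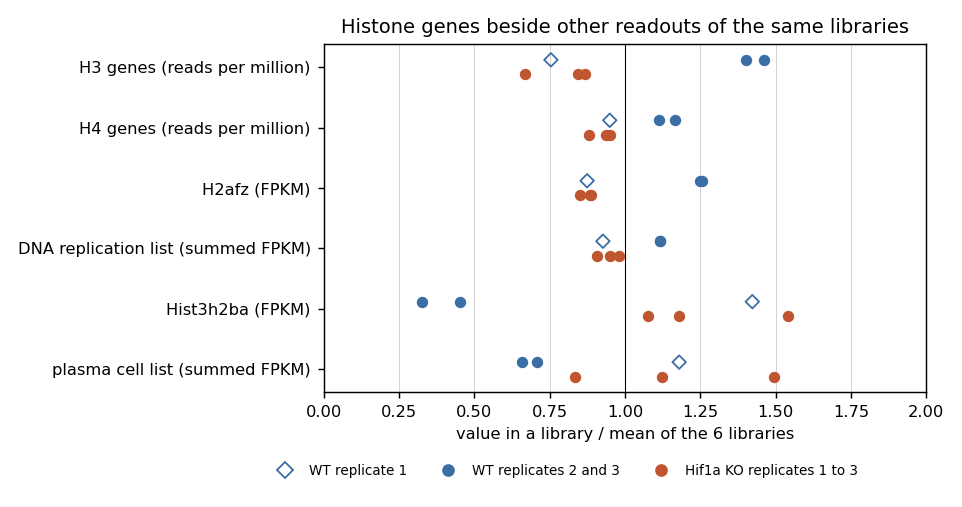
Value in each library divided by the mean of the 6 libraries, for the H3 and H4 genes in RPM, H2afz and Hist3h2ba in FPKM, and the summed FPKM of the DNA replication and plasma cell lists. In every row WT replicates 2 and 3 lie on 1 side of the mean and WT replicate 1 (open diamond) on the other.

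RNAs of other kinds and markers of other cell types also differed between these libraries, and their part in the histone values was not tested. Of 12 small RNAs without a poly(A) tail, 4 were at 0 in all libraries and 3 were tested. Their summed level was 13.4, 21.9 and 23.5 FPKM in WT and 24.8, 14.9 and 14.9 in KO, most of it Rn7sk. Rpph1, the RNA of RNase P, was read at 4.30, 7.60 and 8.57 FPKM in WT and 4.88, 3.28 and 3.57 in KO, with WT replicate 1 inside the KO range. Its difference was -0.64 (SE 0.24, limma adjusted p = 0.626), and without WT replicate 1 it fell by 0.90 (adjusted p = 0.0242, range over the alternatives 0.0242 to 1). The 5 plasma cell markers, all tested, summed to 715, 429 and 399 FPKM in WT and 681, 505 and 906 in KO, most of it Xbp1 and Irf4. All overlapped between groups, and Sdc1 was lower in KO (-0.14) while the other 4 were higher. Their median was 0.43, and 0.71 without WT replicate 1. In that setting 2 of the 5, Prdm1 and Jchain, were called higher, against 3.64% of all genes. The 8 macrophage markers, 5 of them tested, summed to 74.1, 169 and 119 FPKM in WT and 67.4 to 79.1 in KO. Most of this was Adgre1, at 59.8, 91.1 and 81.1 FPKM in WT and 67.7, 69.7 and 55.5 in KO, with overlap. Lyz2, without overlap, was at 6.18, 58.3 and 26.2 FPKM in WT and 0.6, 2.23 and 3.70 in KO. The other tested markers, Cd68, C1qa and Mrc1, overlapped, and Mrc1 was slightly higher in KO (0.071). Csf1r, C1qb and C1qc were without overlap and lower in KO but not tested. Without WT replicate 1, 2 of the 5 tested, Lyz2 and C1qa, were called lower, against 5.75% of all genes. C1qa, at 0.133 FPKM in KO, entered the test only through WT. The 4 erythroid markers were highest in WT replicates 2 and 3 with 12.8 and 9.38 FPKM, against 0.756 in WT replicate 1 and 0.803 to 1.49 in KO. Both of the 2 tested, Hba-a1 and Hbb-bs, were called lower without WT replicate 1, and Hba-a1 entered the test only through WT. The 6 neutrophil markers summed to 37.3 FPKM in WT replicate 1 and to 0 to 0.477 in the other libraries, and S100a8 was at 0 in all KO libraries. The dendritic cell markers summed to 9.71 to 12.9 FPKM in WT and 7.73 to 9.36 in KO, with Siglech the only tested one without overlap. None of the 5 T cell or 3 NK cell markers was tested, and they summed to 0.515 to 1.32 and 0 to 0.199 FPKM, with 1 NK cell marker at 0 in all libraries.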

How the data were processed

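RNA-seq libraries of 3 WT and 3 Hif1a KO cultures, grouped by their labels, were analysed. The authors filtered reads, used TopHat v2.0.12 for alignment to mm10 and HTSeq v0.6.1 for counting, and deposited FPKM values. Annotation release, strand option and multi-aligned reads are not given in the sources used here. Read totals and gene lengths were recovered from the FPKM values, of which 93.3% to 94.4% of the low ones came out as whole reads within 0.001 read. At these depths 14 of the 25 tested histone genes had under 20 reads per library on average.

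Differences, KO minus WT, were fitted by limma 3.58.1 (R 4.3.3) on log2(FPKM + 1) with a mean-dependent prior where a gene's mean reached 0.5 FPKM, without covariates, and p was adjusted by the Benjamini-Hochberg method over all 13312 genes. The method was tested on simulated data, with noise drawn independently for each gene and library. That setting holds no shift of a whole library such as WT replicate 1, so it cannot show how the method behaves under one. Python 3.11.15 with pandas 2.3.3 was used for the rest. Lengths, stem-loops and 100-base stretches came from GENCODE vM21, promoters from RefSeq GRCm38.p6, matched by gene ID.

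By rule, the text named for each histone type the 3 tested genes with the highest mean, the 2 with the largest difference and those without overlap, all genes at 0, and from the other lists Slbp, Npat, H2afx, H2afz, H3f3a, H3f3b and the genes without overlap among the 10 highest. Other names were chosen after their values were seen. Genes and lists were chosen with earlier results of these data known. Replicate numbers were the same in both groups, but nothing states that they pair the libraries, which were taken as unpaired. Alternatives were other pseudocounts, filters, scalings, moderation, a replicate block, voom on recovered reads, array weights and leaving out each library.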

Additional observations from a re-analysis of the deposited data

How the results depend on the processing

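Of the recomputed counts and medians, 169 stayed within the set limits (1.5 times for a count, 1 SD for a median) and 21 did not. Leaving out each library in turn gave 0 to 1251 genes called, with 1251 without WT replicate 1, 1 without KO replicate 1 and 0 otherwise, and 0 to 5 histone cluster genes. It gave 0 to 2 processing factors, 0 to 3 replication-independent histones, 0 to 2 chaperones and 0 to 5 DNA replication genes, each maximum without WT replicate 1. With array weights, where WT replicate 1 had a weight of 0.238, 1449 genes were called, with 7 histone cluster genes, 1 processing factor, 3 replication-independent histones, 2 chaperones and 5 DNA replication genes. Over the same single-library omissions, the median over all tested histone genes ranged from -0.30 (without WT replicate 1) to -0.12, and that of H3 from -0.62 (without WT replicate 1) to -0.20. Under array weights H3 stood at -0.57. With a minimum of 5 FPKM, where Hist1h1c, Hist2h2be and Hist1h4i are left, the medians were 0.21 over all (beside -0.044 with all genes above 0 kept), 0.21 for H1 and 0.27 for H2B. H1 stood at -0.75 with a pseudocount of 0.1 and at -0.87 with voom on recovered reads. The cause was not tested except where fewer genes or samples were left.

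Small differences changed sign when single libraries were left out. Hist1h2ae ranged from -0.31 to 0.15 (without KO replicate 2). Hist1h2ai ranged from -0.39 to 0.094 (without WT replicate 3) and was 0.011 without KO replicate 2. Hist3h2a ranged from -0.039 (without WT replicate 2) to 0.17, H3f3a from -0.028 (without KO replicate 3) to 0.12, and Slbp from -0.046 to 0.018 (without WT replicate 2), with 0.018 also under median-ratio scaling. Hist1h4k was at -0.0062, -0.12, -0.11 and -0.029 without WT replicates 1 and 3 and KO replicates 1 and 2, and at -0.021 with voom. A replicate block called 0 genes and 0 histone cluster genes, and changed no call. Same-numbered libraries had correlations of -0.09873, 0.1389 and -0.2756 in their deviations from the group means. With 3 libraries per group such deviations sum to 0, so these values cannot decide whether the libraries were paired. Tested histone genes held 2 to 632 reads per library with a median of 20, and this depth limits what single genes can show.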
